A study of Mus musculus with 4 samples.

Results

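Mouse chromosome 8 was described in windows of 100 kb, of which 1251 were kept because their mean over the 4 libraries was at least 20 distinct read positions. These bins are part of 23628 autosomal bins kept by the same rule, the other 22377 lying on the other 18 autosomes. The libraries are chromatin immunoprecipitations against total histone H3, 1 library per group, from V6.5 (C57BL/6-129) mouse embryonic stem (ES) cells kept in 10 uM of the TGF-beta inhibitor SB431542 for 24 h, from C2C12 myotubes formed over 48 h in 2% horse serum with selenium, transferrin and insulin, from 38B9 pro-B cells in RPMI with serum, and from untreated V6.5 ES cells. Both ES cultures had been moved from feeder fibroblasts to gelatin before harvest, and all 4 libraries were made with the Abcam AB1791 antibody. C2C12 and 38B9 are each a single permanent line, so that a value from either describes that culture and not muscle or B-cell precursors in a mouse. The SB431542 library was sequenced in a run of its own, apart from the run of the other 3, so that treatment and run cannot be told apart.

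Histone H3 is a core protein of the nucleosome, the unit in which nearly all nuclear DNA is wrapped. A precipitation of total H3 therefore returns DNA from most of the genome, and over long stretches its read density depends on how many copies of the stretch the cells hold as well as on how much H3 each copy yields. Gain of a whole chromosome 8 is a known recurrent change of mouse ES cells in culture, and permanent lines such as C2C12 often carry rearranged chromosome sets in which pieces of a chromosome differ in copy number. If every cell of 2 cultures held a fixed number of copies, ratios of copies between them would be ratios of small whole numbers. A ratio of shares would equal such a ratio, at equal H3 per copy, times a factor common to all places. That factor is set by the scaling between the libraries. No input library was used here, so copy number and H3 recovered per copy cannot be told apart, and no copy was counted in any of the results below.

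Of the 1321 windows from the first base of the chromosome to its last position, 1256 held a position in at least 1 library and 70 were left out, 65 of them empty in every library. The windows left out form 5 gaps in the mm8 coordinates of the files. They run from 1 to 3100000, from 20500001 to 22400000, from 22600001 to 22900000, from 23000001 to 23100000 and from 56700001 to 58300000. Just inside the minimum lay the bin from 20200001 to 20300000, with 23 positions in SB431542 ES cells, 18 in myotubes, 24 in pro-B cells and 16 in untreated ES cells. Just outside it lay the bin from 3000001 to 3100000, with 21, 17, 16 and 25 positions in the same order of libraries. Kept bins had a median of 724 positions in SB431542 ES cells (21 to 1044), 547 in myotubes (18 to 1397), 461 in pro-B cells (9 to 1284) and 659 in untreated ES cells (16 to 920).

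The libraries held 13102915 to 13852985 distinct positions in all, and chromosome 8 took 888220 of them in SB431542 ES cells, 751180 in myotubes, 617963 in pro-B cells and 801905 in untreated ES cells. Repeated reads made up 2.51% to 5.62% of the chromosome 8 reads, the highest share being that of the SB431542 library. As a check of the labelled lines, chromosome X stood at 0.446 of the median autosomal bin in SB431542 ES cells, 0.877 in myotubes, 0.517 in pro-B cells and 0.420 in untreated ES cells. Chromosome Y had 6774, 85, 4607 and 6557 distinct positions in the same libraries, so that it was nearly empty in the myotube library.

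Against the median autosomal bin of its own library, the median bin of chromosome 8 stood at 1.25 in SB431542 ES cells, 1.02 in myotubes, 0.890 in pro-B cells and 1.15 in untreated ES cells. Chromosome 8 was thus the highest of the 19 autosomes in both ES libraries, where the other 18 lay between 0.955 and 1.06 with SB431542 and between 0.958 and 1.06 without it. It was the lowest of the 19 in pro-B cells, where the others lay between 0.898 and 1.14. In myotubes it ranked 5 of 19, in a library whose other autosomes spread from 0.738 to 1.27. These levels need no second library, so the high place of chromosome 8 in ES cells does not rest on the choice of a reference. That high place enters every ratio of shares to untreated ES cells given below. From ratios between places on the chromosome it cancels as far as it is common to them.

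As a share of autosomal positions, chromosome 8 held 6.59% in SB431542 ES cells and 6.11% in untreated ES cells, a ratio of 1.08 (95% interval 1.077 to 1.083, counting error only, as for all intervals below). The other 18 autosomes had ratios from 0.976 to 1.01 in this comparison. It held 6.04% in myotubes, which gave a ratio to untreated ES cells of 0.990 (0.986 to 0.993). It held 4.75% in pro-B cells, a ratio of 0.778 (0.775 to 0.780), against 0.952 to 1.08 for the other autosomes. The pro-B ratio depends on the scaling, because the median autosomal bin of that library lay lower by 0.13 on the log2 scale relative to untreated ES cells once both were scaled to autosomal totals. Scaled to the median bin instead, the pro-B ratio was 0.851, while the SB431542 ratio was 1.09 and the myotube ratio 0.998. Each group being a single library, none of these differences, and none below, has a test or a replicate check.

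Along the chromosome the 3 comparisons looked unlike each other. The log2 ratio of SB431542 to untreated ES cells was above 0 in 1058 of 1251 bins (84.6%), against 48.4% of the bins of the other autosomes. In pro-B cells 146 of 1251 bins (11.7%) were above 0, against 42.0% elsewhere. In myotubes 429 bins (34.3%) were above 0, against 50.9% elsewhere, and these bins were spread unevenly. Of them, 201 made up the whole of a stretch between about 81.5 and 101.6 Mb. Another 226 lay among the 745 bins before that stretch. Beyond it, 2 lay among the next 69 bins and 0 among the last 236. The near-equal total share in myotubes is therefore the sum of a high and several low stretches.

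**Figure D1:**
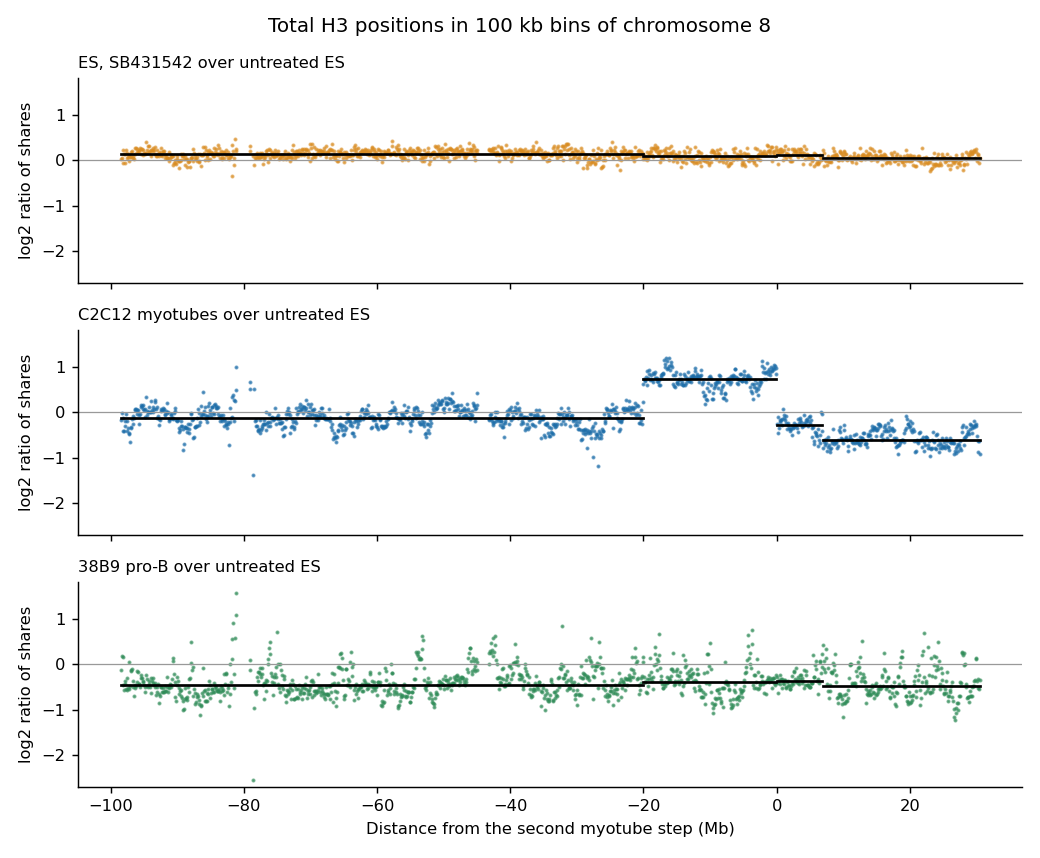
Log2 ratio of autosomal shares to untreated ES cells in 1251 bins of 100 kb of chromosome 8, for SB431542 ES cells (top), C2C12 myotubes (middle) and 38B9 pro-B cells (bottom), against the distance in Mb from the second myotube step; black lines are medians of 4 segments. The myotube panel changes level sharply at the first and second step, while the SB431542 medians lie slightly above 0 in all 4 segments, nearest to it in the distal one, and the pro-B medians lie below 0.

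Bins were called higher or lower where the log2 ratio, taken with 0.5 added to each count, was 0.5 or more away from 0. In SB431542 ES cells 0 bins of chromosome 8 were called higher and 0 lower, where 0.0423% and 0.0635% of all autosomal bins were. In myotubes 183 bins were higher (all autosomes 1.99%) and 197 were lower (all autosomes 3.44%), which is 14.6% and 15.7% of the chromosome. In pro-B cells 17 were higher (all autosomes 7.91%) and 503 were lower (all autosomes 8.49%), which is 1.36% and 40.2% of the chromosome. Under the median-bin scaling these pro-B counts were 30 higher and 270 lower.

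The places where the myotube level changes were fitted from single positions, as the point at which the share of myotube positions among myotube and untreated ES positions changes. The first step was placed at 81451950, with an interval from 81440379 to 81464784 that is 24.4 kb long. In the 1 Mb before it there were 8098 positions in SB431542 ES cells, 6422 in myotubes, 5685 in pro-B cells and 7157 in untreated ES cells. In the 1 Mb after it there were 8044, 11676, 5869 and 7427. The myotube count after the step was 1.82 times that before it, and the other 3 libraries stood at 0.993 to 1.04 times theirs. The ratio of myotube to untreated ES shares was 1.66 after the step and 0.948 before it, so that the ratio after was 1.75 times the ratio before (1.676 to 1.832). This step ratio, after over before, was 0.957 for SB431542 and 0.995 for pro-B against untreated ES cells at the same place.

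In bins of 100 kb the first step falls near the middle of a bin, which therefore holds positions from both sides. The bins thus do not tell how abrupt the step is. The bin from 81300001 to 81400000 had 911 positions in SB431542 ES cells, 623 in myotubes, 659 in pro-B cells and 792 in untreated ES cells, a myotube to untreated ES ratio of 0.831. The bin from 81400001 to 81500000, which holds the fitted place, had 919, 905, 844 and 821 positions and a ratio of 1.16. The bin from 81500001 to 81600000 had 831, 1156, 878 and 790 positions and a ratio of 1.55. The myotube ratio thus differed over 3 neighbouring bins, and pro-B cells also had more positions in the last 2 of them than in the first.

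The fitted place of the first step depended on the library set against the myotubes. With SB431542 ES cells it was 81468083, and with pro-B cells 81539401, and neither interval overlapped the one obtained with untreated ES cells. Within 100 kb of the first fit, the step ratio of pro-B to untreated ES cells was 1.39 (1.215 to 1.595), on 992 pro-B positions after and 747 before, where it was 0.995 over 1 Mb. Over all 8 settings tried the place moved by 87.5 kb, and the 4 choices of comparison library together span 81440379 to 81556763, or 116 kb. The first step is therefore known to somewhat over 100 kb, and not to the 24.4 kb of its own interval.

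The second step was placed more narrowly. It was placed at 101575834, with an interval of 2.66 kb from 101574088 to 101576750. The 1 Mb before it held 6688 positions in SB431542 ES cells, 10574 in myotubes, 4364 in pro-B cells and 5705 in untreated ES cells, and the 1 Mb after it held 7140, 5087, 4723 and 6227. The myotube count after the step was 0.481 of that before it, while the other 3 libraries stood at 1.07 to 1.09 times theirs. The myotube to untreated ES ratio was 0.863 after the step and 1.96 before it, a step ratio of 0.441 (0.420 to 0.463). For SB431542 and pro-B cells against untreated ES cells the step ratio here was 0.978 and 0.992.

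The fitted place of the second step lies late in its 100 kb bin, so that bin holds mostly positions from before the step. The bin from 101400001 to 101500000 had 660 positions in SB431542 ES cells, 1017 in myotubes, 405 in pro-B cells and 547 in untreated ES cells. The bin from 101500001 to 101600000 had 670, 903, 447 and 534, and the bin from 101600001 to 101700000 had 686, 472, 482 and 595. Their myotube to untreated ES ratios were 1.96, 1.79 and 0.838. Most of the change thus falls between the bin with the fitted place and the next, as its late position in the bin would give. The place moved by 5.99 kb over 8 settings, and the intervals with the 4 choices of comparison library span 7.86 kb.

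**Figure D2:**
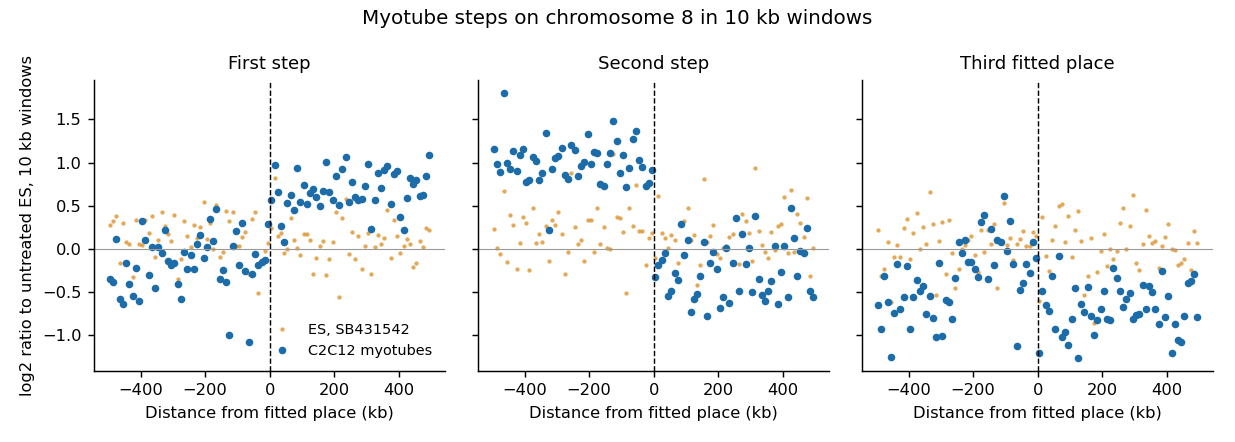
Log2 ratio to untreated ES cells in windows of 10 kb within 500 kb of the 3 fitted places, for SB431542 ES cells (small orange points) and C2C12 myotubes (blue points); the dashed line is the fitted place. Myotube windows change level at the first and second place, SB431542 windows do not, and left of the third place a narrow group of myotube windows lies near 0 between lower windows on both sides.

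The third place was far less well defined. With untreated ES cells the fit gave 108452906 (108439629 to 108460760), and with pro-B cells it gave 106918875. A shorter search window of 1.5 Mb on each side gave 106833223, so that the place moved by 1620 kb over 8 settings. In the 1 Mb before 108452906 there were 6214 positions in SB431542 ES cells, 4373 in myotubes, 5487 in pro-B cells and 5949 in untreated ES cells, and in the 1 Mb after it 7920, 4420, 7385 and 7603. Here the myotube count after the place was 1.01 times that before it, while the other 3 libraries stood at 1.27 to 1.35 times theirs. The myotube to untreated ES ratio was 0.614 after the place and 0.777 before it, a step ratio of 0.791 (0.749 to 0.835).

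The fit near 108.5 Mb sat beside a narrow stretch with more myotube positions, from 108198436 to 108376528 (178 kb), which was singled out after its values had been seen. Per 100 kb it held 780 positions in SB431542 ES cells, 736 in myotubes, 654 in pro-B cells and 737 in untreated ES cells. The 200 kb before it held 1558, 881, 1467 and 1426 positions, and the 200 kb after it 1684, 940, 1875 and 1493, which is 440.5 and 470.0 per 100 kb in myotubes. The myotube to untreated ES ratio was 1.06 in the stretch, 0.653 before it and 0.665 after it, so that the stretch stood at 1.60 times its flanks (1.455 to 1.764). The same contrast was 0.954 for SB431542 and 0.776 for pro-B cells against untreated ES cells. Its first edge, 108198435, had an interval of 5.95 kb, and its last edge was 108376528 with each of the 3 comparison libraries, with an interval of 78.5 kb against untreated and 78.8 kb against SB431542 ES cells and 10.4 kb against pro-B cells.

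Pairs of neighbouring bins that stood this far above their flanks were rare in the myotube comparison. The stretch had been singled out by this same ratio, so its place among the pairs ranks it by size and is no test. Consecutive pairs share a bin and are not separate cases. Of 21009 autosomal pairs, set against 5 bins on each side, 4 stood higher by at least 0.5 on the log2 scale and 5 lower. Of the 4, 1 was the chromosome 8 stretch. The other 3 came from a single place with bins in common, from 30200001 to 30600000 on chromosome 17. Of the 5 lower pairs, 1 lay on chromosome 8, from 101600001 to 101800000, just after the second step. In pro-B cells 242 of the 21009 pairs were as high, 14 of them among the 1161 pairs of chromosome 8, and in SB431542 ES cells 0 pairs were.

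When the search ended before the narrow stretch, the third change was placed at 106833223 with an interval of 128 kb. The 1 Mb before that place held 6377 positions in SB431542 ES cells, 4836 in myotubes, 4390 in pro-B cells and 5857 in untreated ES cells, and the 1 Mb after it 5699, 3623, 4803 and 5465. The myotube to untreated ES ratio was 0.700 after the place and 0.872 before it, a step ratio of 0.803 (0.759 to 0.850). For pro-B cells the step ratio here was 1.17 (1.110 to 1.239), in the other direction, and for SB431542 ES cells it was 0.958. A difference of nearly this size was thus also found at this place in pro-B cells, whose step ratios at the first and second place were close to 1.

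A division of the whole chromosome into stretches of constant level, made without any given place, put the myotube boundaries at 81500001 and 101600001 when 3 stretches were allowed, which accounted for 81.4% of the weighted variance of the log2 ratio. Allowing 4 stretches added a boundary at 106900001 and brought this to 82.7%. In the SB431542 comparison 4 stretches accounted for 18.9%, with means of 0.11, 0.17, 0.09 and 0.02 along the chromosome, the last of them beyond 117300001. In the pro-B comparison 4 stretches accounted for 9.81%, and the one that stood out, 30 bins from 55000001 to 59600000 on both sides of the gap, had a mean of 0.17. Neither of these divisions had a boundary at the first or second myotube step.

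The size of the steps was set beside all other autosomes, as the difference between the medians of 20 bins on each side of every boundary. The steps were known from these data and fitted where this same ratio changed most, whereas the other boundaries were not selected. The shares below therefore rank the steps by size and are no test. The first step was 0.70 and the second -1.14 on the log2 scale. Of 19503 boundaries on the other 18 autosomes, 34 (0.174%) and 32 (0.164%) were as large in either direction, and all of these lay on chromosome 4, where the largest was 2.94. The third change was -0.23 at the fitted place and -0.30 at 106800000, sizes reached at 10.2% and 3.07% of boundaries and on all 18 other autosomes.

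**Figure D3:**
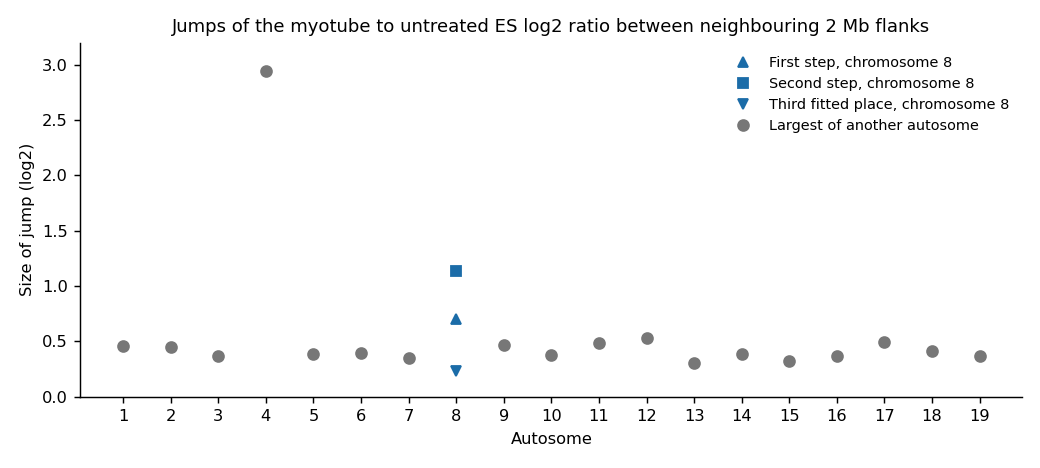
Size of the jump in the myotube to untreated ES log2 ratio between the medians of neighbouring 2 Mb flanks, by autosome; grey points are the largest jump of each other autosome and blue symbols the 3 fitted places of chromosome 8. The second step (1.14) and the first (0.70) lie above every other autosome except chromosome 4 (2.94), and the third (0.23) lies below the smallest of the grey points (0.305).

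The 3 places divide chromosome 8 into a proximal segment of 745 bins, next to the centromere end where mouse chromosomes are numbered from, a middle segment of 201 bins, the third of 69 and a distal one of 236. In myotubes the median bin of the middle segment stood at 1.98 of the median autosomal bin of the library, against 1.04 in the proximal, 0.849 in the third and 0.818 in the distal segment. In the other 3 libraries the 4 segments lay closer together. The middle segment stood at 1.27 in SB431542 ES cells, 0.954 in pro-B cells and 1.19 in untreated ES cells, where the proximal segment stood at 1.25, 0.867 and 1.12 and the distal at 1.26, 0.928 and 1.20. The third segment stood lower than the middle one in all 3, at 1.13, 0.890 and 1.03.

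**Figure D4:**
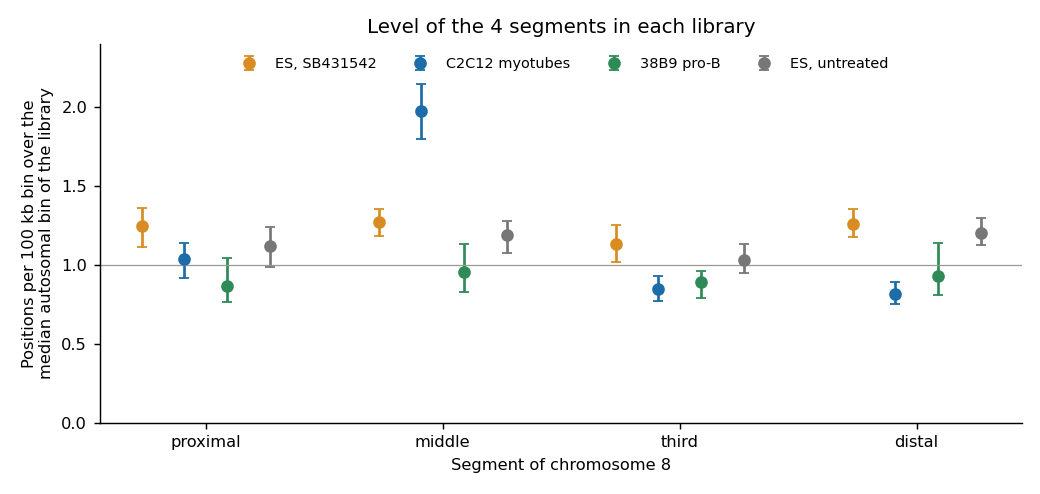
Median number of distinct positions per 100 kb bin in the 4 segments of chromosome 8, divided by the median autosomal bin of the same library; bars run from the first to the third quartile over bins, and each group is 1 library. The middle segment of the myotube library (1.98) stands apart from all other points, which lie between 0.818 and 1.27.

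As ratios of shares, myotubes held 0.918 of the untreated ES level in the proximal segment (0.914 to 0.922), 1.66 in the middle (1.649 to 1.672), 0.823 in the third and 0.675 in the distal segment. All 20 blocks of 1 Mb in the middle segment were above 1, from 1.34 to 2.04, and 0 of 23 in the distal segment were, from 0.607 to 0.798. The proximal segment was less even, with blocks from 0.719 to 1.18 and 18 of 74 above 1. Of the middle bins 179 of 201 were called higher (all autosomes 1.99%), and of the distal bins 155 of 236 were called lower (all autosomes 3.44%). The segment boundaries were fitted to this same ratio, so the counts of blocks and bins describe the segments and do not test them. The level inside the middle segment was not flat: the ratio was 1.66 in its first Mb and 1.96 in its last, and a division into 5 stretches set its last 23 bins apart.

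The pro-B ratios to untreated ES cells were 0.772, 0.798, 0.805 and 0.770 from the proximal to the distal segment, and the SB431542 ratios were 1.10, 1.07, 1.08 and 1.03. The pro-B ratio thus lay below 1 by much the same amount in every segment. The SB431542 ratio was closer to 1 in the distal segment than in the proximal one, with quartiles over 1 Mb blocks of 1.00 to 1.05 distally and 1.08 to 1.14 proximally. Within segments the comparisons differed widely in evenness. After subtraction of segment medians, the log2 ratio had a standard deviation (SD) over bins of 0.103 in SB431542 ES cells, where counting alone gives 0.0853. It was 0.209 in myotubes and 0.323 in pro-B cells, where counting alone gives 0.0908 and 0.0948. For myotubes 7 of the 18 other autosomes had an SD as high, and for pro-B cells 17 of 18.

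Relative to the median of their segment, 10 bins, or 0.799%, were higher by 0.5 or more in myotubes (all autosomes 0.296%). By the same measure 11, or 0.879%, were lower (all autosomes 0.906%), a share near that of all autosomes. No run of 3 neighbouring bins was called. The 5 highest bins lay between 20300001 and 23200000, near the gaps, with 30 to 260 positions in myotubes and 22 to 192 in untreated ES cells. The highest, the bin from 20300001 to 20400000, had 45 positions in SB431542 ES cells, 72 in myotubes, 112 in pro-B cells and 38 in untreated ES cells. Of the 5 lowest, 1 adjoined a gap. Among those with more positions, the bin from 12400001 to 12500000 had 926, 451, 419 and 848, a myotube ratio of 0.562. In SB431542 ES cells 0 bins were higher and 1, or 0.0799%, was lower by this measure (all autosomes 0.0423% and 0.0719%).

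In pro-B cells 119 bins, or 9.51%, were higher by the same measure (all autosomes 10.6%) and 20, or 1.60%, were lower (all autosomes 4.06%), so neither was more frequent than elsewhere. Neighbouring ones formed 12 higher runs covering 5.6 Mb and 2 lower runs covering 0.6 Mb. Higher runs held 4.48% of the bins of chromosome 8, against 5.62% on the other autosomes, and lower runs 0.480%, against 2.02%. The longest higher runs were 1.1 Mb each. From 47400001 to 48500000 there were 8433 positions in SB431542 ES cells, 6525 in myotubes, 8996 in pro-B cells and 7482 in untreated ES cells, a pro-B ratio of 1.21. From 58400001 to 59500000 there were 7861, 5682, 8434 and 6659, a ratio of 1.28. The lowest run, from 128100001 to 128400000, had 2522, 1340, 1135 and 2500 positions and a ratio of 0.458. These runs carry ratios above and below 1 on a chromosome whose pro-B ratio is 0.778 as a whole.

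Reads with 2 reported places, which cannot be assigned to 1 copy of a repeated sequence, gave myotube to untreated ES ratios in the same order of segments, with a smaller spread. These ratios were 0.957 in the proximal, 1.46 in the middle, 0.830 in the third and 0.792 in the distal segment. For pro-B cells they were 0.911, 0.877, 0.888 and 0.847, in another order than with 1-place reads, and for SB431542 ES cells 1.08, 1.07, 1.08 and 1.08, without the lower distal value. In myotubes repeated reads were also most frequent in the middle segment, at 4.14%, against 3.21% in the proximal and 2.98% in both remaining segments; counting every read gave 1.67 for the middle segment.

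The measured ratios were set beside the 11 ratios of whole numbers up to 4. Measured ratios of shares carry the common factor of the scaling, so neither a match nor a miss is a count of copies. None lay inside the counting interval of the SB431542, myotube or pro-B ratio to untreated ES cells, for the whole chromosome or for any segment. With pro-B cells set against SB431542 ES cells, 3/4 lay inside in every segment except the proximal. The ratios there were 0.747, 0.744 and 0.747 from the middle to the distal segment. None of the 11 lay inside for the proximal segment (0.701) or the whole chromosome (0.720). Under the median-bin scaling, 1/1 lay inside for myotubes over the whole chromosome, 0.998 (0.995 to 1.001), and none for SB431542 or pro-B cells. These intervals are narrow against the unevenness of the data, so the quartiles over blocks of 1 Mb were used as a second, wider yardstick. By it 3/4 fell inside for pro-B cells against untreated ES cells over the whole chromosome (quartiles 0.679 to 0.854), 2/3 for the distal segment of myotubes (0.617 to 0.745), and no such ratio for the proximal segment, the middle or the third of myotubes. The SB431542 ratio of 1.08 lay nearest to 1, and its quartiles over blocks (1.05 to 1.12) reached neither 1 nor 4/3. Under the median-bin scaling the pro-B ratio of 0.851 lay 13.5% above 3/4, which remained the nearest of the 11 ratios, where the ratio of 0.778 lay 3.67% above it.

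The steps are free of the scaling between libraries, since both sides come from the same libraries. The intervals of the first step, 1.75 (1.676 to 1.832), and of the second, 0.441 (0.420 to 0.463), held no ratio of numbers up to 4. With numbers up to 8, the first held 7/4 and the second 3/7. With flanks of 2 Mb the first step was 1.70 (1.643 to 1.753) and held 5/3 as well. The second was then 0.454 (0.438 to 0.470) and no longer held 3/7. Against SB431542 ES cells, with flanks of 1 Mb, the first step was 1.83 (1.753 to 1.911) and did not hold 7/4. The second was 0.451 (0.430 to 0.472) and did not hold 3/7. With flanks of 2 Mb the first step there was 1.68 (1.624 to 1.729), again without 7/4. Against pro-B cells it was 1.76 (1.679 to 1.847) with flanks of 1 Mb and held 7/4. The proximal, middle and distal segments stood in the proportions 1 to 1.81 to 0.736 against untreated ES cells, which needs no scaling but depends on the comparison library. The third segment, at 0.823 of the untreated ES share where the proximal stood at 0.918, was left out of these proportions. They were set beside 439 sets of 3 whole numbers up to 8 without a common factor. Of these, 4:7:3 was the only one within 5% of the proportions and the only one within 10%, off by at most 3.37%. The set 3:5:2 came next at 10.4%. Sets with larger numbers were not tried, so being the only set depends on the limit of 8. Against SB431542 ES cells the proportions were 1 to 1.86 to 0.786, 4:7:3 was off by up to 6.49%, and 0 sets lay within 5% and 2 within 10%. Against pro-B cells 4:7:3 was off by up to 1.68%, and 2 sets lay within 10%. A nearby set of numbers is a description and no count of copies, and whether the cells of a culture differ among themselves was not measured. Ratios of shares to untreated ES cells also carry the level of 1.15 at which chromosome 8 stands in that library. A level common to the whole chromosome cancels from the step ratios and from the proportions of segments. Whether either reflects copies was not tested.

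**Figure D5:**
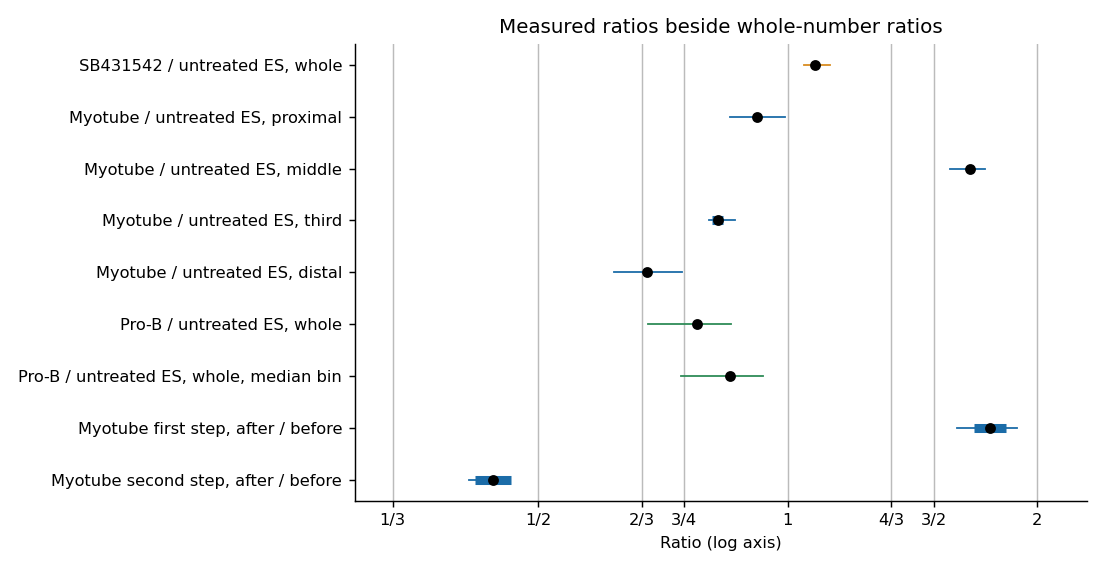
Measured ratios (black points, log axis) beside whole-number ratios with numbers up to 4 (grey lines); thick bars are 95% counting intervals, and thin bars run from the first to the third quartile over 1 Mb blocks, or, for the steps, over pairs of 100 kb bins within 1 Mb on each side. The myotube middle segment (1.66), the first step (1.75) and the second step (0.441) lie between the lines, while the quartiles of the myotube distal segment hold 2/3 and those of both pro-B ratios hold 3/4.

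No gene, exon or untranslated region was placed on the steps or segments, since the annotation used here is of another build than the mm8 coordinates of the files.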

How the data were processed

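Each deposited file lists 1 signed position per aligned read, the sign giving the strand, with no count or normalization by the authors. Bowtie placed the reads on mm8, per the file headers, allowing 2 mismatches in a 36-base seed, a mismatch quality sum of 70 and up to 2 places per read; its version is not given in the sources used here. Per the labels' protocols, chromatin was sonicated to a mean of 500 bp, amplified for 18 cycles and cut from a gel at 150 to 300 bp. The 2 sections of each file were read as reads with 1 and with 2 places, which was inferred from their names and the options. Per the file headers, the SB431542 library came from run 100804 and the other 3 from run 100623.

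At most 1 read with 1 place was kept per position and strand, and shares are of autosomal distinct positions. Ratios have exact conditional binomial intervals (95%), and step ratios have log-scale (Woolf) odds ratio intervals in place of the planned conditional ones. Both kinds reflect counting error alone, because they hold only the sampling of counts within 1 library per group. Amplified reads carry no molecular identifiers and are not independent molecules, which these intervals do not take into account. Steps were placed by maximum likelihood in windows of 3 Mb on each side of 82 Mb and 2.5 Mb on each side of 102 and 107 Mb. Their intervals hold all places within 2 log-likelihood units after division by the dispersion of 10 kb windows. Named bins are those beside the steps, those at the minimum count, and the 5 highest and 5 lowest per comparison after subtraction of segment medians; runs of at least 3 bins and the narrow stretch were named after their values had been seen. The chromosome, its steps and the lists were chosen with earlier results of these data known. Alternatives added after the data were seen were the pooled ES libraries, the search that ends before the narrow stretch, the segment boundary it gives, and the other libraries for the stretch (with all reads) and for the whole-number sets. Python 3.11.15, numpy 2.4.6, scipy 1.17.1 and matplotlib 3.10.9 were used. The step fits, the bin calls and the division into stretches were tried on simulated data with counting error alone. The real 10 kb windows varied more, with dispersions of 1.32, 1.21 and 1.41 in the fits of the 3 places against untreated ES cells. The simulations therefore do not vouch for the step intervals.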

Additional observations from a re-analysis of the deposited data

How the results depend on the processing

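Of 130 alternative values, 76 stayed inside the limit set for their kind (counting interval, 1.5 times for counts, 5% for the whole-number set), 53 moved further and 1 turned its direction. The one that turned was the third step ratio with only 2-place reads, 1.10 (0.896 to 1.339), where the first step ratio was 1.32 and the second 0.685; the cause was not tested. Scaling to the median autosomal bin gave chromosome ratios of 1.09 (SB431542), 0.998 (myotubes) and 0.851 (pro-B), and myotube segment ratios of 0.926 (proximal), 1.67 (middle) and 0.681 (distal). With 2-place reads added the pro-B ratio was 0.782, and with all reads the middle myotube ratio was 1.67. Against SB431542 ES cells, in which chromosome 8 is higher, the ratios were 0.916 for myotubes and 0.720 for pro-B cells, and 0.834, 1.55, 0.761 and 0.656 for the 4 myotube segments. With the third boundary at 106833223 the third myotube segment was 0.847.

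The first step was at 81468083 against SB431542 ES cells, 81539401 against pro-B cells, 81467052 against both ES libraries pooled and 81468291 with minus-strand reads. The second was at 101573060 against pro-B cells and 101579048 with plus-strand reads. The third was at 106918875 against pro-B cells, and at 106833223 both with the 1.5 Mb window and with the search ending before the narrow stretch. The cause of these moves was not tested. The stretch contrast was 2.07 against pro-B cells, and 4:7:3 was off by 6.49% against SB431542 ES cells.

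With a rule of size of 0.3 the calls were 41 higher and 1 lower (SB431542), 398 lower (myotubes), and 37 higher and 859 lower (pro-B), by construction of the smaller size. Without a minimum count SB431542 had 2 higher and 1 lower, and with all reads 1 higher. With the median-bin scaling pro-B cells had 30 higher and 270 lower. No paired analysis was possible because each group had 1 library, and no replicate could be left out for the same reason.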
